A study of Mus musculus with 18 samples.

Results

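The hippocampus of mice that had gone through chronic social defeat stress (CSDS) while training aerobically was compared with that of unstressed, untrained mice. This comparison used 11 of the 18 libraries of the study: 6 exercised CSDS libraries and 5 control libraries, each from 1 mouse. All animals were wild-type adolescent male C57BL/6J mice. In CSDS a mouse repeatedly meets an aggressive resident, and it is widely used as a model of depression. The exercised group began training 1 week before the defeat and kept it up through the defeat, whereas controls had neither. The remaining group of the study, 6 mice with CSDS and no training, was not compared, and its means are given beside some genes. Its libraries took part in the filter on low counts, the scaling of libraries and the estimate of the spread. Because the 2 groups compared differ in defeat and in training at once, the parts of the 2 treatments cannot be told apart here. Control replicate 2 was left out because it carried markers of neocortex: Prox1, which marks granule neurons of the dentate gyrus, had 10.4 CPM in it and 91.7 to 112 in the other controls, and Lamp5, a membrane protein of cortical neurons, had 259 and 26.1 to 34.5. In the 6 exercised libraries Prox1 was at 89.6 to 145 CPM and Lamp5 at 25.7 to 42.8, so both groups carried the granule neuron marker. Wfs1, a CA1 marker, separated the tissues less. It was at 107 to 225 CPM in exercised libraries, 75.7 to 201 in the 5 controls and 67.2 in control replicate 2. CPM are read counts put on a common library size, here with TMM factors that correct for library composition. The 11 libraries held 18911080 to 24136591 counts each, with 21778 to 22738 genes above 0. Below, levels are given as CPM per mouse or as mean ± SD (n = 6 exercised, n = 5 control, exercised first), and log2 fold changes are exercised minus control, ± SE.

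As background, neurons of the hippocampus answer activity within minutes by transcribing immediate early genes, such as Fos and the Egr family, whose products are transcription factors and synaptic proteins. Stress raises corticosterone, which acts in these neurons through the glucocorticoid receptor Nr3c1 and the mineralocorticoid receptor Nr3c2 and induces genes such as Sgk1 and Fkbp5. Aerobic training is known in rodents for its effects on neurotrophins, blood vessels and the birth of new granule cells in the dentate gyrus.

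Immediate early genes lay mostly on the lower side in exercised CSDS mice. The promoters of 4 of the 6 members whose values are given first below are printed here because the activity-dependent elements of these genes are well described: the cyclic AMP response element (CRE, TGACGTCA), its short form (TGACG, which every full CRE contains on both strands) and the CArG box bound by serum response factor. Each window runs from 250 bases before to 50 bases after a RefSeq transcription start in the GRCm38.p6 build, read 5′ to 3′ on the gene's strand, with matches on either strand in capitals. They lie at chr12:85473640-85473939 (plus strand) for Fos, chr10:67537619-67537918 (plus) for Egr2, chr8:84978699-84978998 (minus) for Junb and chr11:101665291-101665590 (plus) for Arl4d, and for Egr2 the window is 1 of 5 in the table.
Fos: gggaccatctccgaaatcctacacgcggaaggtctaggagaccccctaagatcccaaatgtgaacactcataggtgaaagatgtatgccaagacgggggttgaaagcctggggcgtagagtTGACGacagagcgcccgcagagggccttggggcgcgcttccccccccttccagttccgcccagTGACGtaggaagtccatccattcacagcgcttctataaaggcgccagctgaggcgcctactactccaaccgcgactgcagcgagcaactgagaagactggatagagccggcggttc
Egr2: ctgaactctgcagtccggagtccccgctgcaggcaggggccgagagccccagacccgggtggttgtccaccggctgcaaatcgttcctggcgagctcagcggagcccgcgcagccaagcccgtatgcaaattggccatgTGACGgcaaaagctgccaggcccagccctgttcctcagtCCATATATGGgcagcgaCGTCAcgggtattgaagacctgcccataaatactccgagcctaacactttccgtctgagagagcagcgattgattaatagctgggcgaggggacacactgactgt
Junb: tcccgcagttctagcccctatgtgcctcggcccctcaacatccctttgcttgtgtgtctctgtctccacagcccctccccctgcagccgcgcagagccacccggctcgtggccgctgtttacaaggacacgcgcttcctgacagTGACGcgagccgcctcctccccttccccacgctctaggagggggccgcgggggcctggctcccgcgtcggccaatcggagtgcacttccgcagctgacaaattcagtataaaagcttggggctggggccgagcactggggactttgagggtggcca
Arl4d: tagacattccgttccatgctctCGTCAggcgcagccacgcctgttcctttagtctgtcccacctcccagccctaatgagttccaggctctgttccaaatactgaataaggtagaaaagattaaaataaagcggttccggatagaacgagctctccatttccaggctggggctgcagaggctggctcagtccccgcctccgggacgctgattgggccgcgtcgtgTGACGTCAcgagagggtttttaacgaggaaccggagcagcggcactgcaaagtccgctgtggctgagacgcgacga
The Arl4d window holds 1 full CRE, and the Egr2 window holds 1 CArG box between 2 short CREs. The Egr2 window was picked among its 5 by such matches. A full CRE ranked before a CArG box, and a CArG box before a short CRE. Its matches therefore do not describe the other Egr2 windows. Over the 42 of 53 immediate early genes with a window in the table, 69.05% held a short CRE, 14.3% a full CRE and 4.76% a CArG box in any window. Over the 12068 genes tested that had a window, the shares were 33.3%, 3.37% and 1.58%. A match describes the letters in the window and says nothing about binding.

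Over the whole transcriptome the comparison had no gene past the threshold. Of 16833 genes tested, 0 (0.0%) reached an adjusted p under 0.05 in edgeR's quasi-likelihood test, and the smallest adjusted p was 0.126. At an unadjusted p under 0.05, 1250 genes (7.43%) were higher and 724 (4.3%) lower in exercised CSDS mice. Total count scaling gave 1061 higher and 936 lower, and a fit to the 11 libraries alone 751 higher and 979 lower, so the excess of higher genes depends on these choices. It also turned without exercised replicate 4, with 1722 higher and 2325 lower (10.2% and 13.8%), and without control replicate 3, with 941 higher and 1012 lower. The 2 groups did not overlap for 121 genes on the higher side (0.719%) and 32 on the lower side (0.19%). The log2 fold change was above 0 for 53.4% of the genes, with a median of 0.020. On the same 17 libraries 100 genes passed with DESeq2 (0.594%), 78 of them higher and 22 lower. With limma voom, which also weighted libraries by quality, 135 passed (0.802%), 95 higher and 40 lower. The 69 genes called by both, 55 higher and 14 lower, made 69.0% of the DESeq2 calls and 51.1% of the limma voom calls. No gene below passed edgeR's threshold, so each is given by its values, and "higher" or "lower" states the side on which it lay.

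**Figure D1:**
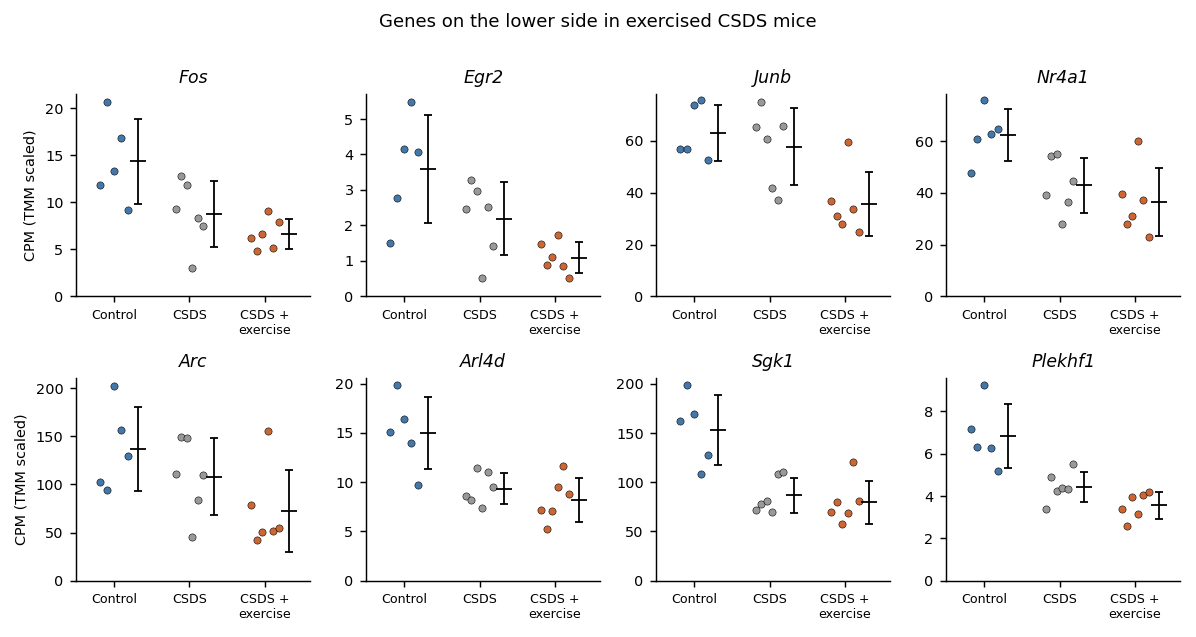
Level of 8 genes in CPM (TMM scaled, linear axis from 0) in each library of control (n = 5), CSDS (n = 6) and exercised CSDS mice (n = 6); each point is 1 mouse, and the bar beside the points gives the mean ± SD. For Fos and Plekhf1 the highest exercised mouse lay below the lowest control, and for the other 6 genes the groups overlapped.

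Fos, a partner in the AP-1 transcription factor, was at 11.8, 20.6, 13.3, 16.8 and 9.17 CPM in control replicates 1, 3, 4, 5 and 6. Exercised mice lay between 4.87 and 9.05 CPM, with a median of 6.46. The groups did not overlap, and every exercised mouse was below the lowest control (log2 fold change -1.11 ± 0.28; adjusted p = 0.210). Egr2, a zinc finger transcription factor, was at 1.49, 2.78, 4.14, 5.47 and 4.07 CPM in the controls. The exercised group ranged from 0.513 to 1.74 CPM around a median of 0.997. All but 1 control lay above every exercised mouse, and the exception, replicate 1, lay within their range (log2 fold change -1.70 ± 0.40; adjusted p = 0.186). Junb, another AP-1 component, was at 57.002, 56.7, 73.8, 75.6 and 52.6 CPM in the controls. Values ran from 24.8 to 59.4 CPM in the 6 exercised mice (median 32.5). Only exercised replicate 4 reached into the control range, and the other 5 exercised mice were below all controls (log2 fold change -0.82 ± 0.21; adjusted p = 0.210).

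Arl4d, a small GTPase of the Arf family whose transcript is induced by activity, was at 15.05, 19.9, 16.4, 13.99 and 9.76 CPM in the controls. Among exercised mice the lowest was 5.23, the median 7.98 and the highest 11.6 CPM. The ranges met only where exercised replicate 5 lay above control replicate 6 (log2 fold change -0.87 ± 0.19; adjusted p = 0.153). Nr4a1, an orphan nuclear receptor chosen after its values were seen, was at 47.6, 60.8, 75.8, 62.9 and 64.5 CPM in the controls. Exercised mice lay between 22.98 and 60.2 CPM, with a median of 34.1. As for Junb, exercised replicate 4 alone lay within the control range (log2 fold change -0.77 ± 0.21; adjusted p = 0.228). Arc, a synaptic protein that regulates AMPA receptor removal, was at 103, 94.5, 202, 157 and 129 CPM in the controls and between 42.1 and 155 CPM (median 53.1) in the exercised mice. Again exercised replicate 4 stood highest, and the log2 fold change was -0.93 ± 0.33 (adjusted p = 0.318). Without that mouse it was -1.33.

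Of the 53 immediate early genes tested, 23 were lower and 0 higher at an unadjusted p under 0.05, against 4.3% and 7.43% of all genes. Their median log2 fold change was -0.30, and 41 of 53 lay below 0. DESeq2 called 5 of them and limma voom 6, beside 0.594% and 0.802% of all genes. Without exercised replicate 4, 27 were lower and 1 higher, beside 13.8% and 10.2% of all genes, which are also the shares to set beside the counts of other lists without that mouse. Npas4, a neuron-specific activity-dependent factor, was at 5.09 ± 1.57 against 6.52 ± 0.880 CPM, close to the list median (log2 fold change -0.35 ± 0.22; adjusted p = 0.511). The list was not uniform: Bdnf, the neurotrophin, lay on the higher side at 30.1 ± 4.22 against 26.4 ± 5.02 CPM (log2 fold change 0.19 ± 0.14; adjusted p = 0.562). Without control replicate 3 the log2 fold change of Bdnf was 0.079. In CSDS mice without training the mean was 8.80 CPM for Fos, 57.7 for Junb and 42.9 for Nr4a1, so the exercised means of 6.64, 35.7 and 36.5 lay farther from the control means of 14.3, 63.1 and 62.3. The difference between CSDS and exercised mice is not tested here.

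Genes that respond to glucocorticoids split by member. Sgk1, a kinase that glucocorticoids induce and that acts on ion channels and transporters, was at 162, 199, 169.6, 108 and 127 CPM in the controls. The exercised group ranged from 57.2 to 121 CPM around a median of 75.04. Of the exercised mice only replicate 5 lay within the control range, above control replicate 5 (log2 fold change -0.94 ± 0.19; adjusted p = 0.146). Sgk1 was called by DESeq2 and by limma voom. Klf15, a Krüppel-like factor, was at 17.3 ± 1.93 against 23.9 ± 3.49 CPM (log2 fold change -0.47 ± 0.12; adjusted p = 0.213), and Arrdc2, an arrestin-domain gene, at 8.90 ± 2.11 against 13.7 ± 3.11 CPM (log2 fold change -0.62 ± 0.18; adjusted p = 0.249).

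Other members of the same response lay elsewhere. Zbtb16, a zinc finger factor induced by glucocorticoids, was on the higher side at 58.4 ± 13.5 against 45.2 ± 5.70 CPM (log2 fold change 0.37 ± 0.15; adjusted p = 0.368). Tsc22d3, which encodes GILZ, was on the lower side (log2 fold change -0.31 ± 0.14; adjusted p = 0.400). Both were chosen after their values were seen. Without exercised replicate 5 the log2 fold change of Zbtb16 was 0.24. Fkbp5, the co-chaperone that limits glucocorticoid receptor signalling, was at 92.1 ± 15.7 against 90.8 ± 10.5 CPM, with a log2 fold change of 0.019 ± 0.12 that took either sign among the alternatives. The receptors were at 78.4 ± 13.02 against 67.4 ± 3.83 CPM for Nr3c1 (log2 fold change 0.22 ± 0.11; adjusted p = 0.448) and at 185 ± 50.2 against 174 ± 29.3 for Nr3c2 (log2 fold change 0.10 ± 0.15; adjusted p = 0.804). Without exercised replicate 6 the log2 fold change of Nr3c1 was 0.14, and that of Nr3c2 was -0.070 without exercised replicate 4 and -0.025 without control replicate 3. In all, 12 of 41 glucocorticoid-responsive genes were lower and 3 higher at an unadjusted p under 0.05, with a median log2 fold change of -0.19. Over all genes 4.3% were lower and 7.43% higher. Without exercised replicate 4, 15 were lower and 5 higher, and without control replicate 3 the median was -0.078. Errfi1, a feedback inhibitor of EGF receptor signalling, also lay on the lower side (log2 fold change -0.35 ± 0.090; adjusted p = 0.213).

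Plekhf1, an endosomal protein that binds phosphoinositides, had the smallest p of all genes tested. It was at 7.16, 6.31, 9.25, 6.29 and 5.18 CPM in the controls. Values ran from 2.59 to 4.20 CPM in the 6 exercised mice (median 3.69). Every exercised mouse was below the lowest control (log2 fold change -0.94 ± 0.17; adjusted p = 0.126). It was called by DESeq2 and limma voom, and by edgeR when control replicate 2 was kept or exercised replicate 4 was left out. In CSDS mice without training Plekhf1 was at 4.45 ± 0.709 CPM (SD, n = 6).

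Pdgfa, a growth factor for oligodendrocyte precursors, was at 16.2 to 19.1 CPM in exercised and 19.7 to 28.05 in control mice (log2 fold change -0.46 ± 0.10; adjusted p = 0.149). Inhbb, a subunit of activin B, was at 7.95 to 9.98 against 10.5 to 13.9 CPM (log2 fold change -0.48 ± 0.11; adjusted p = 0.176). Both were smaller once a trend on GC content described below was removed, with log2 fold changes of -0.25 for Pdgfa and -0.22 for Inhbb. Pxdc1 (log2 fold change -0.59 ± 0.12; adjusted p = 0.146), the membrane protein gene Tmem238 (log2 fold change -0.73 ± 0.16; adjusted p = 0.153) and Fam129b (log2 fold change -0.55 ± 0.14; adjusted p = 0.210) also had groups that did not overlap. For Clec11a, a secreted growth factor, exercised mice were at 1.43 to 2.54 CPM, and only control replicate 6, at 2.04, lay within that range (log2 fold change -0.73 ± 0.18; adjusted p = 0.186).

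Long noncoding RNAs that stay in the nucleus lay on the higher side. Malat1, a component of nuclear speckles, where splicing factors gather, was at 157, 100.2, 96.99, 104 and 95.3 CPM in the controls. Among exercised mice the lowest was 175, the median 234 and the highest 418 CPM. The groups did not overlap, although control replicate 1 stood well above the other 4 controls and exercised replicate 2 well above the other 5 exercised mice (log2 fold change 1.18 ± 0.22; adjusted p = 0.146). Kcnq1ot1, the imprinted antisense transcript that silences neighbours of Kcnq1, was at 4.74, 3.97, 3.68, 3.83 and 3.73 CPM in the controls. Exercised mice lay between 5.21 and 12.7 CPM, with a median of 6.96. Every exercised mouse was above every control, with replicate 2 again highest (log2 fold change 1.00 ± 0.19; adjusted p = 0.146).

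Snhg14, the imprinted host of small nucleolar RNAs that runs antisense to Ube3a, was at 20.05, 17.6, 16.9, 21.4 and 21.2 CPM in the controls. The exercised group ranged from 24.9 to 58.3 CPM around a median of 34.04. These groups did not overlap either (log2 fold change 0.94 ± 0.19; adjusted p = 0.146). Meg3, an imprinted RNA of the Dlk1 locus chosen after its values were seen, was at 211 to 355 CPM in controls and 367 to 1164 in exercised mice (log2 fold change 1.20 ± 0.28; adjusted p = 0.181). Snhg11 was at 263 ± 112 against 124 ± 30.5 CPM (log2 fold change 1.08 ± 0.25; adjusted p = 0.181), with 1 exercised mouse inside the control range. Without exercised replicate 2 the log2 fold change was 0.97 for Malat1, 0.76 for Snhg14 and 0.90 for Meg3. The nuclear paraspeckle RNA Neat1, at 65.7 ± 20.6 against 48.4 ± 13.4 CPM (log2 fold change 0.44 ± 0.23; adjusted p = 0.448), and Miat, at 190.3 ± 74.8 against 118 ± 21.8 (log2 fold change 0.69 ± 0.26; adjusted p = 0.328), overlapped between groups. Both were chosen after their values were seen. Leaving out exercised replicate 2, the log2 fold change of Neat1 was 0.27. Reads of Kcnq1ot1 and Snhg14 cannot be told apart from those of the genes they overlap if counting ignored strand, which the sources used here do not state.

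Of the 25 nuclear long noncoding RNAs tested, 23 had a log2 fold change above 0, beside 53.4% of all genes, and the median was 0.42. At an unadjusted p under 0.05, 11 were higher and 0 lower, beside 7.43% and 4.3% of all genes. In 4 of them the groups did not overlap, all on the higher side, where the share of all genes was 0.719%. DESeq2 and limma voom each called 5, beside 0.594% and 0.802% of all genes. Without exercised replicate 4, 13 were higher and 0 lower. With the GC trend removed, 11 were again higher and 0 lower, against 4.97% and 2.73% of all genes, and the median was 0.44. The mean levels in CSDS mice without training were 173 CPM for Malat1 and 5.35 for Kcnq1ot1, between the control means of 111 and 3.99 and the exercised means of 250.4 and 7.98.

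**Figure D2:**
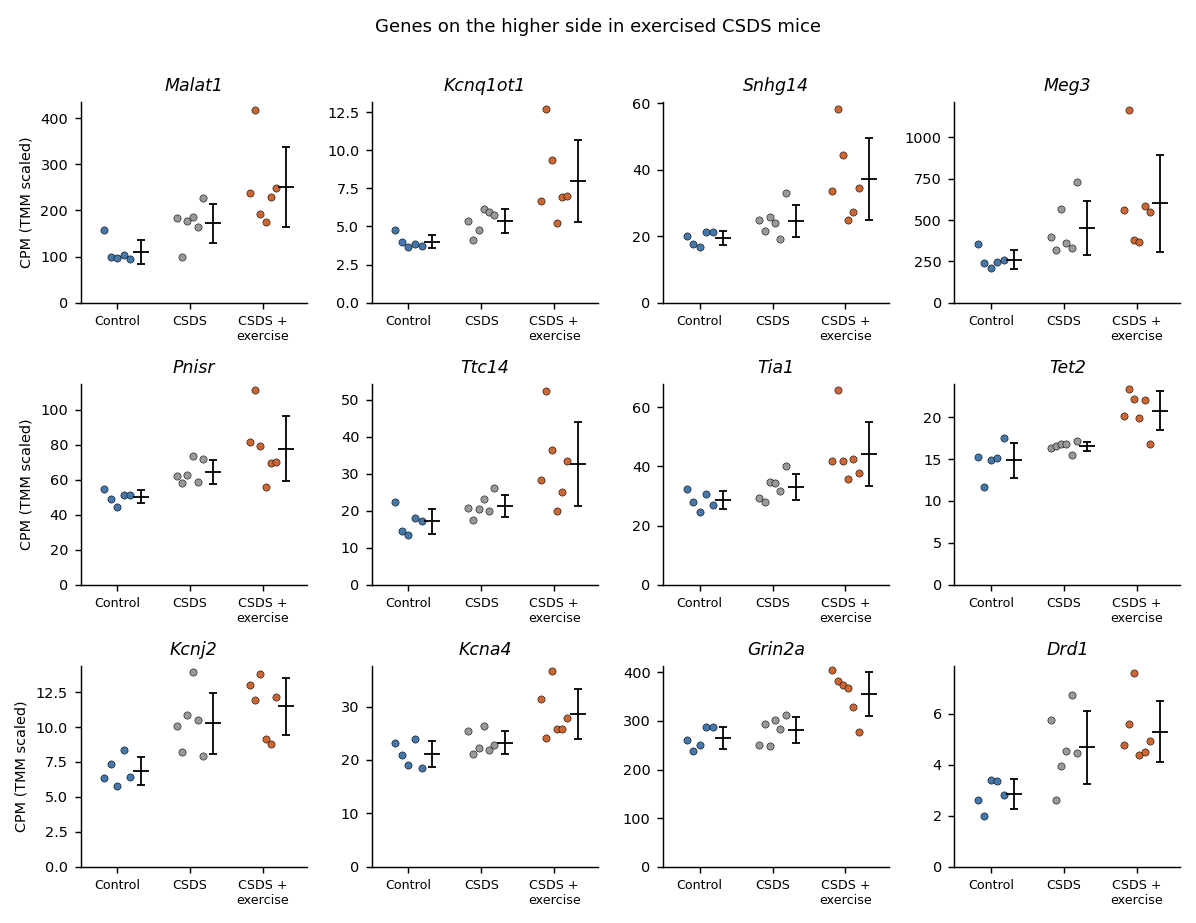
Level of 12 genes in CPM (TMM scaled, linear axes from 0) in each control (n = 5), CSDS (n = 6) and exercised CSDS (n = 6) library, with the mean ± SD beside the points. Exercised replicate 2 is the highest point of its group for Malat1, Kcnq1ot1, Snhg14, Meg3, Pnisr, Ttc14, Tia1 and Tet2, while Kcnj2, Kcna4, Grin2a and Drd1 have another mouse highest.

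Genes of RNA splicing and RNA binding were also on the higher side. Pnisr, a protein of the splicing machinery rich in serine and arginine, was at 54.5, 49.02, 44.5, 51.5 and 51.2 CPM in the controls. Values ran from 55.8 to 111 CPM in the 6 exercised mice (median 74.5). The groups did not overlap, by a narrow margin at exercised replicate 4 (log2 fold change 0.63 ± 0.13; adjusted p = 0.146). Tia1, which regulates splicing and forms stress granules, was at 24.6 to 32.3 CPM in controls and 35.8 to 65.7 in exercised mice, without overlap (log2 fold change 0.64 ± 0.14; adjusted p = 0.153). Ttc14 was at 32.6 ± 11.3 against 17.1 ± 3.47 CPM, with exercised replicate 4 below the highest control (log2 fold change 0.93 ± 0.20; adjusted p = 0.149). Taf1d, a subunit of the RNA polymerase I selectivity factor that also hosts small nucleolar RNAs, was at 9.68 ± 2.33 against 5.68 ± 1.01 CPM (log2 fold change 0.77 ± 0.17; adjusted p = 0.149), and its log2 fold change with the GC offset was 0.43.

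Among 66 splicing regulators tested, 57 had a log2 fold change above 0, beside 53.4% of all genes. At an unadjusted p under 0.05, 23 were higher and 0 lower, beside 7.43% and 4.3% of all genes. The differences of the list were small, with a median log2 fold change of 0.19. Srsf6, an SR protein, was at 90.6 ± 9.50 against 72.02 ± 5.54 CPM (log2 fold change 0.33 ± 0.085; adjusted p = 0.213), and Celf2, which binds GU-rich RNA, at 346 ± 34.4 against 285 ± 20.4 CPM (log2 fold change 0.28 ± 0.088; adjusted p = 0.281). Mbnl2, a regulator of alternative exons, was at 134 to 195 CPM in exercised and 108 to 132 in control mice (log2 fold change 0.32 ± 0.10; adjusted p = 0.271), and Hnrnpdl, an RNA-binding protein of the hnRNP family, at 151 ± 21.5 against 113 ± 14.1 (log2 fold change 0.42 ± 0.13; adjusted p = 0.285). The list's transcripts had a median GC content of 45.3% against 50.5% over all genes. With the GC trend removed the median was 0.068, and 13 were higher and 1 lower, beside 4.97% and 2.73% of all genes. Without exercised replicate 4, 29 were higher and 6 lower, beside 10.2% and 13.8% of all genes. Without control replicate 4, 11 were higher and 0 lower, beside 826 and 359 of 17027 genes.

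Fold changes over all genes followed the GC content of the transcripts, and this bears on each group described here. Across 16510 genes with a GC value, Pearson's r between GC content and log2 fold change was -0.48, a description over genes that share the same libraries. Among genes with an unadjusted p under 0.05, the median GC content was 43.7% for those higher and 57.2% for those lower. The slope of a library's deviation on GC content, in log2 per 10 percentage points, was -0.11 ± 0.21 (SD, n = 6) in exercised mice, from -0.38 to 0.25. In controls it was 0.13 ± 0.15 (SD, n = 5), from -0.019 to 0.36. The difference did not pass an exact two-sided permutation test (p = 0.0628, 462 regroupings, smallest possible p 0.00216; 0.188 adjusted over 3 library measures). Exercised replicate 4 was the only exercised library with a positive slope. When each library's smooth trend on GC entered the model as an offset, r was -0.020, 837 genes (4.97%) were higher and 459 (2.73%) lower at an unadjusted p under 0.05, and 0 were called. The part of this trend in the results above was not tested beyond the values given with the offset. Under the offset the log2 fold change was -0.99 for Fos, -0.98 for Sgk1, -0.86 for Plekhf1, 0.95 for Malat1 and 0.80 for Snhg14, and 16 immediate early genes were lower and 0 higher with a list median of -0.19. For glucocorticoid-responsive genes the counts were 8 lower and 4 higher, with a median of -0.10.

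**Figure D3:**
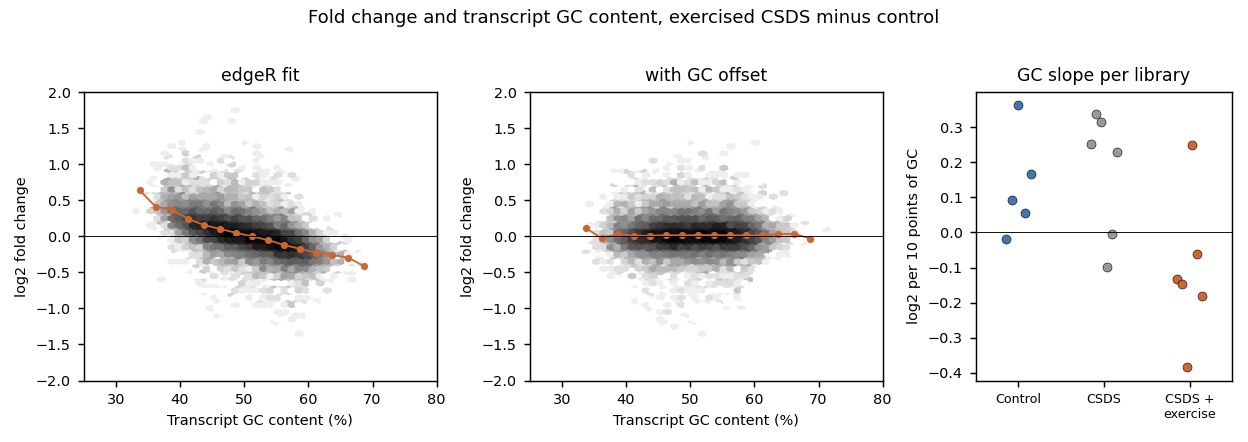
Left and middle, log2 fold change (exercised CSDS minus control) of each gene against transcript GC content in percent, before and after the GC offset; darker cells hold more genes on a log scale, and orange points are medians in bins of at least 20 genes. Right, GC slope of each library in log2 per 10 percentage points, with 5 of 6 exercised libraries below 0 and 4 of 5 controls above 0.

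Several ion channel genes lay on the higher side. Kcnj2, an inward rectifier potassium channel, was at 6.34, 7.37, 5.78, 8.38 and 6.45 CPM in the controls. Among exercised mice the lowest was 8.82, the median 12.04 and the highest 13.8 CPM. Every exercised mouse was above every control (log2 fold change 0.74 ± 0.16; adjusted p = 0.149). Kcna4, a voltage-gated channel of the A-type current, was at 24.1 to 36.7 CPM in exercised and 18.5 to 24.01 in control mice (log2 fold change 0.44 ± 0.11; adjusted p = 0.210). Kcnb2, a delayed rectifier, was at 17.6 to 31.4 CPM in exercised and 12.5 to 17.1 in control mice (log2 fold change 0.55 ± 0.14; adjusted p = 0.209). Neither overlapped between groups. Cacna1e, the pore of R-type calcium channels, was at 375 ± 49.1 against 286 ± 37.6 CPM (log2 fold change 0.39 ± 0.11; adjusted p = 0.231). Of 81 ion channel genes, 15 were higher and 3 lower at an unadjusted p under 0.05, beside 7.43% and 4.3% of all genes. The list's median log2 fold change of 0.041 was close to that of all genes. Under the GC offset 10 were higher and 1 lower, beside 4.97% and 2.73% of all genes. Without exercised replicate 4 the counts were 15 higher and 16 lower, beside 10.2% and 13.8% of all genes. The list's median was then -0.056.

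The NMDA receptor subunits Grin2a and Grin2b, which set the kinetics of the receptor, were both on the higher side. Grin2a was at 261, 239, 251, 287 and 288 CPM in the controls. Exercised mice lay between 277 and 405 CPM, with a median of 370.5. Only exercised replicate 6 lay within the control range (log2 fold change 0.42 ± 0.10; adjusted p = 0.181). Grin2b was at 628 ± 79.7 against 487 ± 56.8 CPM (log2 fold change 0.37 ± 0.10; adjusted p = 0.232). Of 38 glutamate receptor genes 3 were higher and 0 lower at an unadjusted p under 0.05, a share of members close to the 7.43% of all genes. Of 20 GABA receptor genes 4 were higher and 0 lower, or 1 higher under the GC offset, where 4.97% of all genes were. Leaving out exercised replicate 4, the glutamate receptor counts were 6 higher and 5 lower and the GABA receptor counts 6 higher and 0 lower. Over all genes 10.2% were then higher and 13.8% lower. Without exercised replicate 3 or without control replicate 4, 0 GABA receptor genes were higher. Over all genes the higher counts were then 861 of 16800 and 826 of 17027. Drd1, the D1 dopamine receptor, was at 1.99 to 3.39 CPM in controls and 4.37 to 7.58 in exercised mice (log2 fold change 0.90 ± 0.22; adjusted p = 0.195). Its groups did not overlap, and the CSDS mean was 4.68 CPM.

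The remaining genes with the smallest p on the higher side had mixed roles. Tet2, an enzyme that oxidises methylated cytosine, was at 15.2, 11.7, 14.9, 15.1 and 17.5 CPM in the controls. The exercised group ranged from 16.8 to 23.4 CPM around a median of 21.1. Control replicate 6 lay above the lowest exercised mouse, replicate 6, and no other value crossed (log2 fold change 0.48 ± 0.10; adjusted p = 0.146). Chromatin enzymes as a list had 9 of 70 higher and 2 lower, beside 7.43% and 4.3% of all genes, but 5 higher and 11 lower without exercised replicate 4. Their median log2 fold change was -0.0035. In that list Ezh2, the methyltransferase of Polycomb complex 2, was at 4.36 to 5.71 CPM in exercised and 2.99 to 4.15 in control mice (log2 fold change 0.45 ± 0.15; adjusted p = 0.288), and Mbd3, of the NuRD complex, lay on the lower side (log2 fold change -0.27 ± 0.086; adjusted p = 0.281) but at -0.021 with the GC offset. Dgkh, a diacylglycerol kinase, was at 134 ± 13.5 against 102 ± 7.70 CPM (log2 fold change 0.39 ± 0.086; adjusted p = 0.153). The olfactory receptor gene Olfr986 (log2 fold change 0.79 ± 0.16; adjusted p = 0.146) and the vomeronasal receptor gene Vmn2r115 (log2 fold change 0.63 ± 0.14; adjusted p = 0.149) had groups that did not overlap. Both belong to families with near-identical copies among which RSEM divides reads, so their counts are uncertain, and with the GC offset Vmn2r115 was at 0.29.

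**Figure D4:**
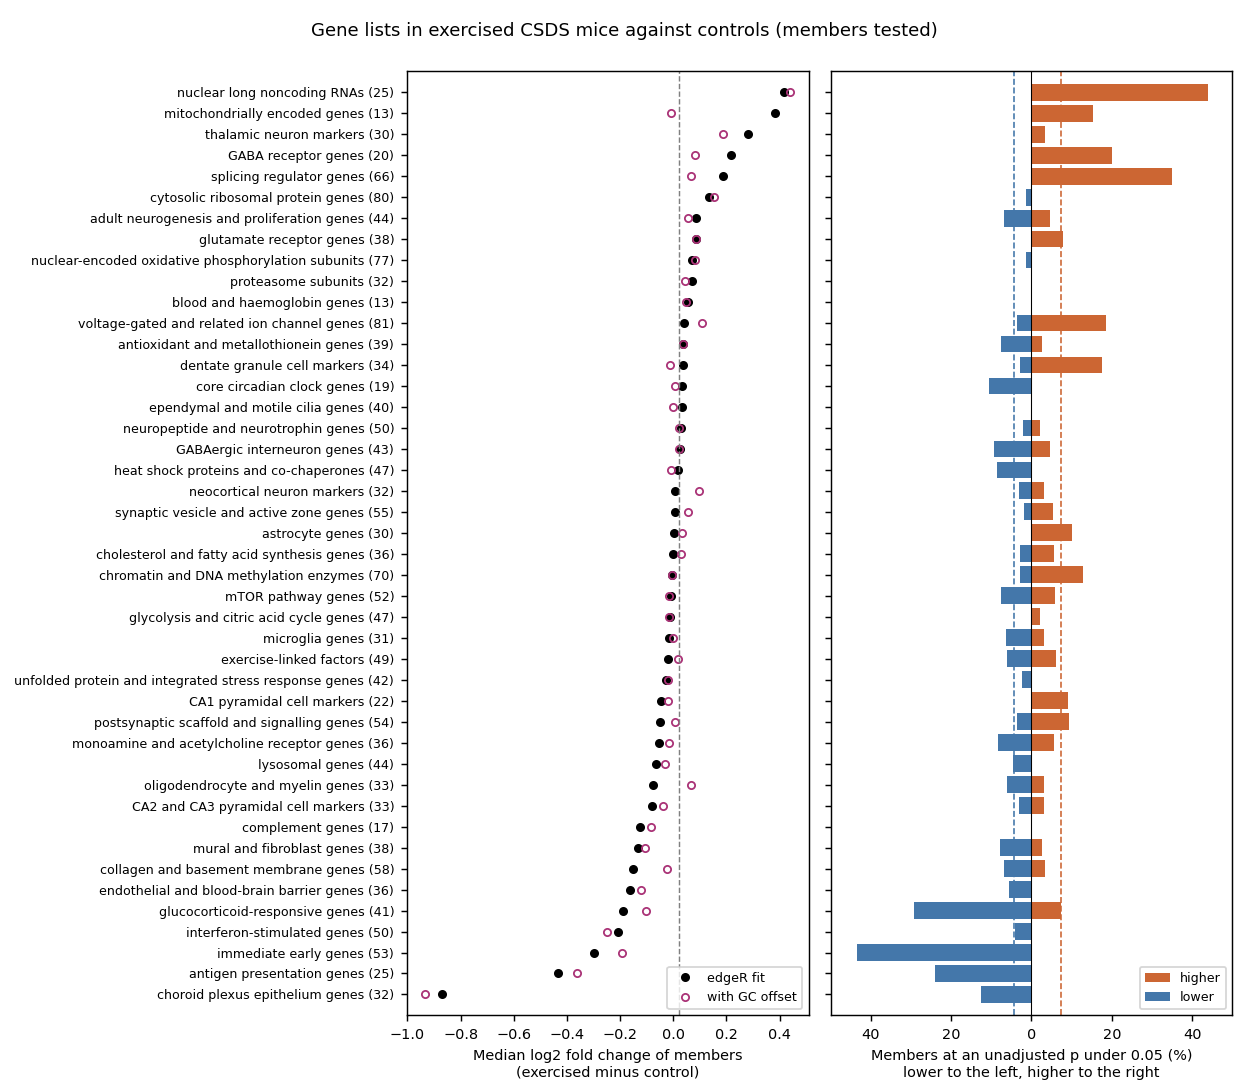
Left, median log2 fold change (exercised CSDS minus control) of each of 44 gene lists in the edgeR fit and with the GC offset, with the median of all genes as a dashed line. Right, share of each list's tested members in percent at an unadjusted p under 0.05, lower to the left and higher to the right, with the 4.3% and 7.43% of all genes dashed; immediate early genes reach farthest to the left and nuclear long noncoding RNAs farthest to the right.

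Antigen presentation and interferon-stimulated genes lay mostly on the lower side. All 25 antigen presentation genes tested had a log2 fold change below 0, with a median of -0.43. At an unadjusted p under 0.05, 6 of them were lower and 0 higher, beside 4.3% and 7.43% of all genes. H2-K1, a classical class I heavy chain, was at 38.05 ± 7.75 against 54.6 ± 14.97 CPM (log2 fold change -0.52 ± 0.20; adjusted p = 0.328). Tapbp, or tapasin, which helps load peptides, was at 29.5 ± 4.31 against 38.2 ± 6.50 CPM (log2 fold change -0.37 ± 0.15; adjusted p = 0.359), and at -0.17 under the GC offset. Under that offset 3 of the 25 were lower, beside 2.73% of all genes. Without control replicate 6, 2 of the 25 were lower, beside 697 of 17020 genes, and without control replicate 5, 11, beside 844 of 17042. Class I genes share near-identical sequence, so the division of reads among them is uncertain, and their shared direction is not 25 separate observations. The mean of their log2 CPM was 2.23 to 2.81 in exercised mice and 2.41 to 3.26 in controls, which overlapped. Of 50 interferon-stimulated genes 41 lay below 0 (median -0.21), with 2 lower and 0 higher at an unadjusted p under 0.05, a share near the 4.3% of all genes. Without control replicate 6 that median was -0.084, and without exercised replicate 1 it was -0.13. Without exercised replicate 6, control replicate 4 or control replicate 5, 7, 6 and 6 were lower. Over all genes these counts were 957 of 16785, 359 of 17027 and 844 of 17042. Irf1, a transcription factor of that response, was at 6.61 ± 1.21 against 8.42 ± 1.05 CPM (log2 fold change -0.35 ± 0.14; adjusted p = 0.343), and Lgals3bp, a secreted glycoprotein, at 34.8 ± 13.5 against 71.5 ± 38.1 (log2 fold change -1.04 ± 0.43; adjusted p = 0.361). Without control replicate 6 the log2 fold change of Lgals3bp was -0.69.

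Choroid plexus RNA split the exercised libraries. Ttr, the transthyretin made by choroid plexus epithelium, was at 5198, 3351, 4435, 2408 and 3535 CPM in the controls. In exercised replicates 1, 4 and 5 it was at 34.4, 26.5 and 87.3 CPM and in replicates 2, 3 and 6 at 6149, 2598 and 3824. The first 3 lay far below every control, and the last 3 within or near the control range (log2 fold change -0.84 ± 1.26; adjusted p = 0.789). All 32 choroid plexus genes tested had a log2 fold change below 0, with a median of -0.87. At an unadjusted p under 0.05, 4 were lower and 0 higher, beside 4.3% and 7.43% of all genes. Without exercised replicate 2, which had the highest Ttr, the log2 fold change of Ttr was -1.53 and the list median -1.36. Then 7 of the list were lower, beside 613 of 16793 genes. Without exercised replicate 1 the list median was -0.67 and 2 were lower, beside 487 of 16799 genes. The summed level of the 32 choroid plexus genes ran from 395 to 9602 CPM in exercised mice and from 4163 to 8745 in controls. None of Ttr, Folr1, Kl and Kcnj13 was at 0 in any of the 11 libraries. The part of choroid plexus RNA in other results was not tested. Slc5a5, the iodide transporter in the same list, behaved otherwise: exercised mice were at 12.6 to 19.7 CPM and controls at 19.99 to 22.2, without overlap (log2 fold change -0.45 ± 0.12; adjusted p = 0.213; -0.26 with the GC offset). In bulk tissue, fewer cells of a type and less RNA per cell cannot be told apart.

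**Figure D5:**
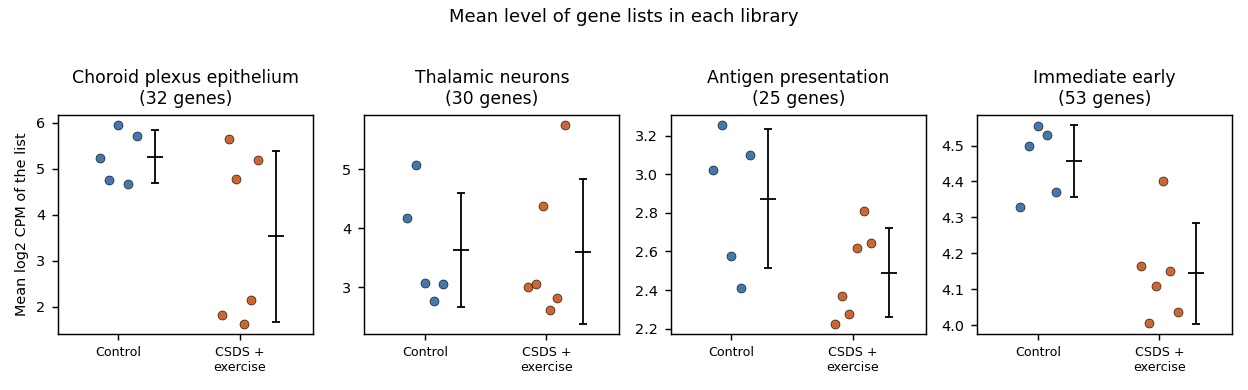
Mean log2 CPM of the tested members of 4 lists in each control (n = 5) and exercised CSDS library (n = 6), with the mean ± SD of each group beside the points. The exercised libraries form 2 levels for choroid plexus genes, and 1 of them stands highest for thalamic genes.

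Thalamic neuron markers differed among libraries too. Tcf7l2, a transcription factor of thalamic neurons, was at 143 CPM in exercised replicate 6 and 33.4 in replicate 3, against 4.63 to 6.11 in the other 4, and it ran from 4.65 to 70.1 in controls. The 30 thalamic markers summed to 482 to 2488 CPM in exercised and 500.1 to 1641 in control mice. Their median log2 fold change was 0.28, and it ran from -0.44 to 0.59 when single libraries were left out, the lowest without exercised replicate 6 and the highest without control replicate 3. Its part in other results was not tested.

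Factors linked to exercise and to new neurons were near the background as lists. Of 49 exercise-linked factors 3 were higher and 3 lower at an unadjusted p under 0.05, beside 7.43% and 4.3% of all genes. The list's median log2 fold change was -0.019. Vegfa, a vascular growth factor, was at 31.5 ± 7.83 against 34.1 ± 6.32 CPM, the growth factor Igf1 at 6.37 ± 2.32 against 5.29 ± 0.967, Fndc5, the precursor of irisin, at 78.2 ± 11.1 against 78.7 ± 3.74, and the coactivator Ppargc1a at 34.2 ± 7.11 against 31.7 ± 2.15. For each of these 4 the difference was smaller than 1 SD of the exercised group. The integrin Itgav had 1 of the smallest p in that list (log2 fold change 0.32 ± 0.12; adjusted p = 0.335), with a log2 fold change of 0.20 without exercised replicate 3. Without exercised replicate 4, 4 of the 49 were higher and 8 lower. Dcx, a microtubule protein of immature neurons, was at 16.5 ± 2.92 against 12.2 ± 1.97 CPM (log2 fold change 0.43 ± 0.14; adjusted p = 0.291), and at 0.20 under the GC offset. Of 44 neurogenesis and proliferation genes 2 were higher and 3 lower. Among them Fabp7, a lipid carrier of radial glia, was at 18.1 ± 10.1 against 10.2 ± 3.37 CPM (log2 fold change 0.82 ± 0.34; adjusted p = 0.368), and Hes1, a repressor in the Notch pathway, at 7.25 ± 1.46 against 9.85 ± 0.993 (log2 fold change -0.44 ± 0.14; adjusted p = 0.285). Without exercised replicate 3, at 34.4 CPM, the log2 fold change of Fabp7 was 0.53. Zbtb20, a transcription factor of hippocampal neurons, was at 179 to 232 CPM in exercised and 132 to 175 in control mice, without overlap (log2 fold change 0.36 ± 0.094; adjusted p = 0.213). It is 1 of 34 dentate granule cell markers, of which 6 were higher and 1 lower, beside 7.43% and 4.3% of all genes. The median of these markers was 0.037. Leaving out exercised replicate 4, these markers had 3 higher and 8 lower and a median of -0.055, and the median was also below 0 without control replicate 1, 3 or 5.

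Mitochondrial and glial genes close the account. All 13 mitochondrially encoded genes tested had a log2 fold change above 0, with a median of 0.38 that was -0.0068 with the GC offset. At an unadjusted p under 0.05, 2 were higher, beside 7.43% of all genes. The median of the 13 was 0.20 without exercised replicate 3 and 0.25 without control replicate 4. mt-Nd4l, a subunit of complex I whose gene overlaps mt-Nd4, was at 74.96 ± 29.99 against 26.9 ± 16.3 CPM (log2 fold change 1.48 ± 0.43; adjusted p = 0.243), and mt-Nd5 at 2443 ± 975 against 1835 ± 378 (log2 fold change 0.41 ± 0.26; adjusted p = 0.519; log2 fold change 0.20 without exercised replicate 3). All genes whose symbol begins with mt-, whether or not in this list, took 1.71 to 5.10% of the counts in exercised and 1.79 to 3.61% in control libraries. This difference did not pass an exact two-sided permutation test (p = 0.240; 0.240 adjusted over 3 library measures). Cytosolic ribosomal protein genes had 68 of 80 members above 0 and a median of 0.13, with 0 higher and 1 lower at an unadjusted p under 0.05. Their direction rested on single libraries, since the median was -0.0071 without control replicate 6, 0.047 without exercised replicate 5 and 0.054 without control replicate 4. Without control replicates 1 or 3 it was 0.22 or 0.20. Gfap, an intermediate filament of astrocytes, was at 424 ± 114 against 432 ± 70.9 CPM, Aif1, of microglia, at 4.30 ± 0.547 against 3.80 ± 1.58, and Mbp, of myelin, at 3202 ± 710.4 against 3808 ± 902, and adjusted p was 0.943, 0.744 and 0.516. Of 36 endothelial genes 28 lay below 0, whereas 53.4% of all genes lay above 0. The list's median was -0.16, or -0.072 without control replicate 3 and -0.26 without exercised replicate 4. At an unadjusted p under 0.05, 2 were lower and 0 higher, beside 4.3% and 7.43% of all genes. With the GC offset 6 were lower and 0 higher, beside 2.73% and 4.97%. Without exercised replicate 4, 9 were lower and 0 higher, beside 13.8% and 10.2%. The lowest log2 fold change in the list was -0.89. Klf2, a transcription factor of endothelium that is also in the immediate early list, was at 6.99 ± 2.86 against 13.02 ± 2.36 CPM (log2 fold change -0.89 ± 0.30; adjusted p = 0.291).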

How the data were processed

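Hippocampal RNA of each mouse was sequenced as 1 library. Per the labels' protocols, poly(A) RNA was taken from frozen tissue samples whose RNA integrity number reached 7 or more, and the libraries were stranded and read on a NovaSeq X Plus. All samples carry 1 batch label. The authors deposited 1 table of expected counts per gene, which need not be whole and are not normalized. The submitters' processing notes name fastp, HISAT2, RSEM and GRCm38 (mm10), but their order, the release of the gene annotation and the handling of strand were not given in the sources used here. Reads that match several genes are shared among them by RSEM, and counts of near-identical copies, predicted genes, pseudogenes and overlapping genes are uncertain. Of the nonzero values 22.7% were not whole (tolerance 1e-06), and all were rounded before testing. The table held 57180 identifiers, of which 51884 matched a symbol, and the other 5296 took 0.620% of the counts.

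The test was run in edgeR 4.0.16 (R 4.3.3). After filterByExpr (minimum count 10, total 15) and TMM scaling, a quasi-likelihood model was fitted over 17 libraries and compared by its F test, with 1 term per group, and the contrast was exercised CSDS minus control. P-values were adjusted by Benjamini and Hochberg over 16833 genes, with a threshold of 0.05. The prior count for log2 CPM was 2. These p-values weigh the difference between the 2 group means against the spread among mice within groups, estimated over the 17 libraries. All 25 pairs of replicates within the 2 groups had larger differences than sampling noise gives (chi-square per gene 9.42 to 139.8), so no library was taken for a copy of another. Scripts were tested on simulated counts with known changes.

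The comparison, its members and the 44 gene lists were chosen with earlier results of these data known, so the lists are described by counts and medians beside those of all genes, and no test of a list was made. The text may name the 12 genes with the smallest p in each direction among named genes averaging 1 CPM or more (predicted genes left out), since fewer than 10 genes were called. It may also name for each list the 4 members or fewer of smallest p, 17 fixed genes and the regional markers. Others are said to be chosen after their values were seen. Promoter windows came from RefSeq tables (GRCm38.p6) and were matched by symbol. GC content was the median over a gene's GENCODE M21 transcripts, known for 98.1% of the genes tested. For the GC offset each library's deviation was smoothed on GC content (6 degrees of freedom) and entered the model as an offset. Other alternatives were DESeq2 1.42.0, limma voom 3.58.1 with quality weights, other scalings, filters and libraries, a 1.5-fold minimum, robust estimation, 1 surrogate variable (sva 3.50.0), the replicate number as a block, and leaving out each library.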

Additional observations from a re-analysis of the deposited data

Results flagged for a closer look

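Among 170 groups of mice, those of 85 genes whose values are given, 19 had 1 mouse far from the rest: the gap from the highest or lowest mouse to the next, divided by the range of the group, passed Dixon's 95% limit. Chance alone passes about 1 group in 20. In exercised replicate 2, Malat1 was at 418 CPM, Snhg11 at 478, Meg3 at 1164 and Tia1 at 65.7 CPM, each above the other 5 exercised mice. In exercised replicate 4, Junb at 59.4, Arc at 155, Vegfa at 46.3, Bag3 at 11.2, Akt1s1 at 42.2 and Prox1 at 146 CPM stood above the others. In exercised replicate 3, Kcnb2 at 31.4 and Mbnl2 at 195 CPM stood above the others, as did Arrdc2 at 12.9 CPM in replicate 5. In exercised replicate 6, Mbp at 4532 and Tcf7l2 at 143 CPM stood above and Dgkh at 108 CPM below the others. Among controls, Malat1 at 157 and Kcnq1ot1 at 4.74 CPM stood high in replicate 1, and Fndc5 at 72.2 CPM low in replicate 5. The causes were not tested.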

How the results depend on the processing

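The count of 0 genes called by edgeR held with RLE or total count scaling, without the filter, with 1 CPM in 5 libraries, with a 1.5-fold minimum, with robust estimation, with 1 surrogate variable, with the 11 libraries alone and with the GC offset. It was 100 with DESeq2 (662 adjusted p NA), 135 with limma voom, 3 with control replicate 2 kept (Gm42664, Gm48415 and Plekhf1, the first 2 named after their values were seen) and 0 to 24 when single libraries were left out, the latter only without exercised replicate 4 (16 higher, 8 lower). The 1974 genes at an unadjusted p under 0.05 became 155 with a 1.5-fold minimum, 1296 with the GC offset, 3272 with limma voom, and 1185 (without control replicate 4) to 4047 (without exercised replicate 4). Both of these were also combined with the GC offset, chosen after seeing the data: 968 genes with 0 called without control replicate 4, and 2323 with 1 called without exercised replicate 4.

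Deviations of same-numbered libraries correlated at 0.12, 0.073, 0.27, 0.12 and -0.12, so replicate numbers were not taken as pairs. With the replicate number as a block edgeR called 0 genes, with 1446 at an unadjusted p under 0.05, or 0 and 913 together with the GC offset.

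Of 79 genes, 11 changed sign under some setting. Prox1 and Wfs1, named above as regional markers, were not among the 79 and also changed sign. Without exercised replicate 4 the log2 fold change of Prox1 went from 0.12 to -0.010 and that of Wfs1 from 0.063 to -0.12. Wfs1 was also at -0.032 without control replicate 1 and at -0.12 without control replicate 3. With the GC offset, with the block and GC offset, and with the GC offset without exercised replicate 4, Bdnf was at -0.060, -0.056 and -0.17. With the GC offset, with the block and GC offset, and with the GC offset without control replicate 4, mt-Nd5 was at -0.030, -0.0070 and -0.073, Fndc5 at 0.052, 0.039 and 0.041, and Gfap at 0.064, 0.063 and 0.12. Mbd3 was at 0.0011 with the block and GC offset. With 1 surrogate variable Vegfa was at 0.083, Igf1 at -0.072, Fndc5 at 0.018, Gfap at 0.11 and Tcf7l2 at -0.52. Tcf7l2 was also at -0.67 with limma voom, -0.037 with the replicate block and -0.0045 with the block and GC offset, and Gfap at 0.16 with control replicate 2 kept. Fkbp5 was at -0.013 without the filter, -0.010 with the 11 libraries alone and -0.022 with the GC offset without exercised replicate 4, where Nr3c2 was at -0.081. Leaving out single libraries gave -0.055 to 0.085 for Fkbp5, -0.070 to 0.16 for Nr3c2, -0.088 to 0.040 for Fndc5, -0.19 to 0.058 for Gfap, -0.0020 to 0.15 for Ppargc1a and -1.11 to 1.44 for Tcf7l2. The other 68 of the 79 genes kept their direction under every setting run. The causes were not tested.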

Other observations

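Several further lists had few members at an unadjusted p under 0.05, where 7.43% of all genes were higher and 4.3% lower, and their counts moved with exercised replicate 4. Of 47 heat shock proteins and co-chaperones, 4 were lower and 0 higher at an unadjusted p under 0.05, among them Hspbp1, a nucleotide exchange factor of Hsp70 (log2 fold change -0.29 ± 0.082; -0.060 with the GC offset), and Bag3, a co-chaperone of autophagy (log2 fold change -0.42 ± 0.16; -0.29). Of 52 mTOR pathway genes 3 were higher and 4 lower, with Tfeb, a regulator of lysosomal genes, at 6.99 ± 1.73 against 9.38 ± 1.42 CPM (log2 fold change -0.42 ± 0.15; -0.18) and Akt1s1, an inhibitor within mTOR complex 1, at 33.8 ± 4.36 against 42.6 ± 5.24 CPM (log2 fold change -0.33 ± 0.11; -0.015). Chrm4, a muscarinic receptor, was at 5.28 ± 1.95 against 9.98 ± 3.17 CPM (log2 fold change -0.92 ± 0.33; adjusted p = 0.319), on the opposite side from Drd1, although both mark the same striatal neurons in textbooks. Of 54 postsynaptic genes 5 were higher and 2 lower, and of 55 synaptic vesicle genes 3 were higher and 1 lower. Without exercised replicate 4, where 10.2% of all genes were higher and 13.8% lower, the counts were 5 higher and 19 lower for postsynaptic genes, 3 higher and 6 lower for vesicle genes, 0 higher and 10 lower for heat shock genes and 4 higher and 14 lower for mTOR genes.

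The shares of genes at an unadjusted p under 0.05 differed with the span of the gene in the M21 annotation. In the 3302 genes with the shortest spans (median span 3.38 kb), 7.42% were higher and 6.63% lower. In the 3302 genes with the longest spans (median 133 kb) the shares were 11.2% and 1.30%. With the GC offset they were 6.27% and 2.70% in the shortest and 5.94% and 1.76% in the longest. Across the 16510 genes with a span, Pearson's r between log2 fold change and log10 span was 0.021, a description over genes, which are not independent replicates.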
